A study of Mus musculus with 2 samples.

Results

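The microRNA genes described here are the 81 of 2202 annotated mouse microRNA genes whose GENCODE symbol begins with Mir297, Mir466, Mir467 or Mir669. They were chosen by symbol, with earlier results of these data known, and comprise 6 Mir297, 28 Mir466, 17 Mir467 and 30 Mir669 genes. Of these, 71 lie within the gene Sfmbt2 and 10 lie elsewhere in the genome. The libraries come from the hippocampus of female B6CASTF1/J mice (hybrids between C57BL/6J and CAST/EiJ) aged 14 days, with no treatment named, as 1 group of 2 biological replicates, each with 1 technical replicate. The labels give 3 females per replicate, so a library stands for pooled animals, and the tissue label speaks of a layer of hippocampus without naming it. RNA was size-limited to under 30 and sequenced as small RNA. With a single group there was no contrast between conditions, and the pools cannot be told apart from the library preparations, 1 of which was made for each.

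A microRNA is cut from a hairpin precursor and loaded into an Argonaute protein, where its seed, bases 2 to 8 from the 5′ end, pairs with messenger RNAs and lowers their translation or stability. Sfmbt2 encodes a Polycomb group protein, and in mice and rats an intron of this gene carries one of the largest microRNA clusters of the genome, built from tandem copies of a repeat unit. The gene is imprinted and expressed from the paternal copy in the placenta and other extraembryonic tissues, where the cluster is best known. Relatives with the same names are scattered over other chromosomes, and many of them are rich in alternating purines and pyrimidines.

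RefSeq (build GRCm38.p6) gave sequences for 9 of the 81 genes, all of them outside Sfmbt2. The following mature sequences are shown because the repeat character and the different seeds of the scattered relatives can be read from them directly. Each is written 5′ to 3′ with the seed in capitals.
mmu-miR-466q (chr3:28419988-28420007, plus strand): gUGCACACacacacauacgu
mmu-miR-466k (chr3:85467396-85467418, plus strand): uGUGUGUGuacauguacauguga
mmu-miR-466j (chr10:60960802-60960824, plus strand): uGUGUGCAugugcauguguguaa
mmu-miR-466i-3p (chr13:17747552-17747573, plus strand): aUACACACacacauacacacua
mmu-miR-467f (chr11:69635419-69635439, minus strand): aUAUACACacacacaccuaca
mmu-miR-467g (chr5:34732872-34732892, minus strand): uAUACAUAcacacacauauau
mmu-miR-467h (chr9:115381898-115381919, plus strand): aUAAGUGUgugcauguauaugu
mmu-miR-669n (chr3:115979905-115979924, plus strand): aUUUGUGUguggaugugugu
The 8 mature sequences carry 8 different seeds, although most are made of the same UG or CA steps. Purines and pyrimidines alternate without a break over 8 to 22 bases in them, with a median of 20, against a median of 4 over the 1738 mature mouse sequences of the same table. A run of at least 12 such bases is found in 7 of the 8, and in 0.575% of all mature sequences.

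The hairpins repeat the pattern over a longer stretch. RefSeq gave 4 hairpins, and the longest alternating run was 27 of 121 bases in Mir467h and 12 of 54 in Mir669n. The hairpins with the longest runs, Mir297-1 and Mir466k, are shown with that run in capitals. It covers 50 of 76 bases in the former and 41 of 122 in the latter.
Mir297-1 (chr7:10958437-10958512, minus strand): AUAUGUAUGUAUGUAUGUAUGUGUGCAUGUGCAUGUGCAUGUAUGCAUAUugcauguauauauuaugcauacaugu
Mir466k (chr3:85467377-85467498, plus strand): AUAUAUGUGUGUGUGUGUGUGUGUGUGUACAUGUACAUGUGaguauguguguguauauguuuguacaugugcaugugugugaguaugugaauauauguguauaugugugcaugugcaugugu
Over the hairpins of all 81 genes, taken from the GENCODE transcripts, the longest alternating run ranged from 12 to 101 bases with a median of 25. The median over all 2202 microRNA genes was 6, and a run of 12 or more bases occurred in 10.6% of the genes outside the 4 families. The hairpins were also poor in G and C, with a median of 36.5% against 50.8% over all microRNA genes.

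Replicate 1 had 4764797 counts assigned to microRNA genes and replicate 2 had 2852269, and levels are given as CPM, the usual scaling of a count by that total. A read under 30 bases spans a whole mature microRNA, so counts were not divided by gene length, and the products of the 2 arms of a hairpin are not separated. A read that aligned to several places was counted in no gene. Such reads made up 40.8% and 37.1% of all reads in replicates 1 and 2, so each level below is one of uniquely placed reads only. With a floor of 3 counts, a count of 0 allows a level of up to 0.630 CPM in replicate 1 and 1.05 CPM in replicate 2. Intervals and floors cover counting error only, since amplified reads without molecular identifiers are not independent molecules. In bulk tissue, fewer cells of a type and less RNA per cell cannot be told apart.

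The tissue label was checked against microRNA markers. All 12 neuron-enriched genes had a count and 9 had at least 10 counts in both libraries, together 2.55% and 2.59% of the counts. Single genes of this list moved in both directions. Mir128-1 (7405 and 2540 CPM), Mir128-2 (2467 and 1066) and Mir137 (6526 and 4153) were lower in replicate 2. Mir138-1 (2760 and 7155 CPM), Mir138-2 (1510 and 3481) and Mir132 (4678 and 7461) were higher. Of the copies of the defining neuronal microRNA, Mir124a-1 had 10 and 18 counts, and Mir124a-2 and Mir124a-3 at most 2. Each of these copies shares a run of 32 bases with another microRNA gene, so reads that aligned to several of them were not counted. Oligodendrocyte markers held 0.193% and 0.320%, microglial and immune markers 0.114% and 0.0930%, red blood cell markers 0.0290% and 0.0722%, and endothelial markers 0.997% and 1.69% in replicates 1 and 2. Choroid plexus and ciliated cell markers, 5 of 6 with a count and Mir449b at 0, held 0.395% and 0.119%. The 4 of these with at least 10 counts in both libraries were all lower in replicate 2. Mir204 had 2027 and 439 CPM, Mir449a 1179 and 404, Mir34c 692 and 336, and Mir34b 48.9 and 8.41. The microglial and immune markers Mir150 (991 and 837 CPM), Mir155 (82.9 and 49.1), Mir142 (54.6 and 41.0) and Mir223 (7.77 and 3.51) were lower too. Of these, Mir142 and Mir223 did not pass the test described below. In other lists the markers did not all move together. Among red blood cell markers Mir451a had 217 and 663 CPM, while Mir144 (47.2 and 37.5 CPM) and Mir486 (25.4 and 20.7 CPM) were lower in replicate 2. All endothelial counts were those of Mir126a, with Mir126b at 0. In the oligodendrocyte list Mir219a-1 and Mir219a-2 were higher in replicate 2, and Mir338 was lower (664 and 590 CPM). The part of these marker differences in the values below was not tested.

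Of the 81 genes, 14 had a count in either library (17.3%, against 35.8% of all microRNA genes) and 8 had at least 10 counts in both libraries (9.88%, against 18.6%). Together the 81 genes held 10744 counts in replicate 1 and 6928 in replicate 2. That is 0.225% (exact Clopper-Pearson 95% interval 0.221 to 0.230) and 0.243% (0.237 to 0.249) of all assigned counts, a mean of 0.234% ± 0.0123 (SD, n = 2). Nearly all of this came from 2 families: Mir467 held 69.1% and Mir669 30.9% of the group's counts in replicate 1, and 79.95% and 19.9% in replicate 2. The 28 Mir466 genes together had 3 and 11 counts, and the 6 Mir297 genes had 0 and 2. No read was assigned to the opposite strand of any of the 81 genes, and the unstranded counts were the same as the sense counts for all 81.

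The Sfmbt2 cluster carried the signal. Its 71 genes held 100% of the group's counts in replicate 1 (exact interval 99.97 to 100) and 99.93% in replicate 2 (99.83 to 99.98). In GRCm38 they span 51.6 kb, chromosome 2 from 10466663 to 10518279, all on the plus strand, which is that of Sfmbt2 (ENSMUSG00000061186.15, 10370510 to 10595253). All lie in a single intron of 62472 bases, intron 11 of the transcript tagged as principal and intron 10 of another. The annotation places a further 48 microRNA genes with Gm symbols within Sfmbt2 on the same strand, 119 in all. Those 48 had 1 count in replicate 1 and none in replicate 2.

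Mir467d led the group. It lies at chromosome 2, 10507630 to 10507714 (ENSMUSG00000077021.2), and had 5524 and 4330 counts, or 1159 CPM (exact 95% interval 1129 to 1190) in replicate 1 and 1518 CPM (1473 to 1564) in replicate 2. The mean was 1339 ± 254 CPM (SD, n = 2), which ranked 105 and 86 among all 2202 genes. By itself this gene made up 51.4% and 62.5% of the counts of the 81 genes.

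Mir669c, Mir467e and Mir669o followed at some distance, and lie on both sides of Mir467d within the same end of the cluster. Mir669c (chromosome 2, 10509296 to 10509404), a microRNA reported to increase in ageing mouse liver, had 2026 and 781 counts, 425 and 274 CPM. Mir467e (10505721 to 10505807) had 1572 and 927 counts, 330 and 325 CPM, a spread of 3.48 CPM (SD, n = 2) that was small beside its mean of 327. Mir669o (10514300 to 10514395) had 979 and 474 counts, 205 and 166 CPM. Mir669c was above Mir467e in replicate 1 and below it in replicate 2, and their means differed by 22.0 CPM, less than the SD of 107 CPM of Mir669c. The step from Mir467d down to Mir669c was 2.73-fold in replicate 1 and 5.54-fold in replicate 2, so the order held in both libraries but its size did not.

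The other 4 genes were lower. Mir467c (chromosome 2, 10473931 to 10474027) had 328 and 282 counts, 68.8 and 98.9 CPM. Mir669l (10468971 to 10469068) had 237 and 78 counts, 49.7 and 27.3 CPM. These 2 genes lie near the start of the cluster and kept their order in both libraries, with Mir467c 1.38-fold higher in replicate 1 and 3.62-fold higher in replicate 2. Mir669e (10467495 to 10467613) had 39 and 18 counts, 8.19 and 6.31 CPM, and Mir669h (10518155 to 10518279) had 34 and 21 counts, 7.14 and 7.36 CPM. The last 2 changed places between the libraries, and their counting intervals overlapped.

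**Figure D1:**
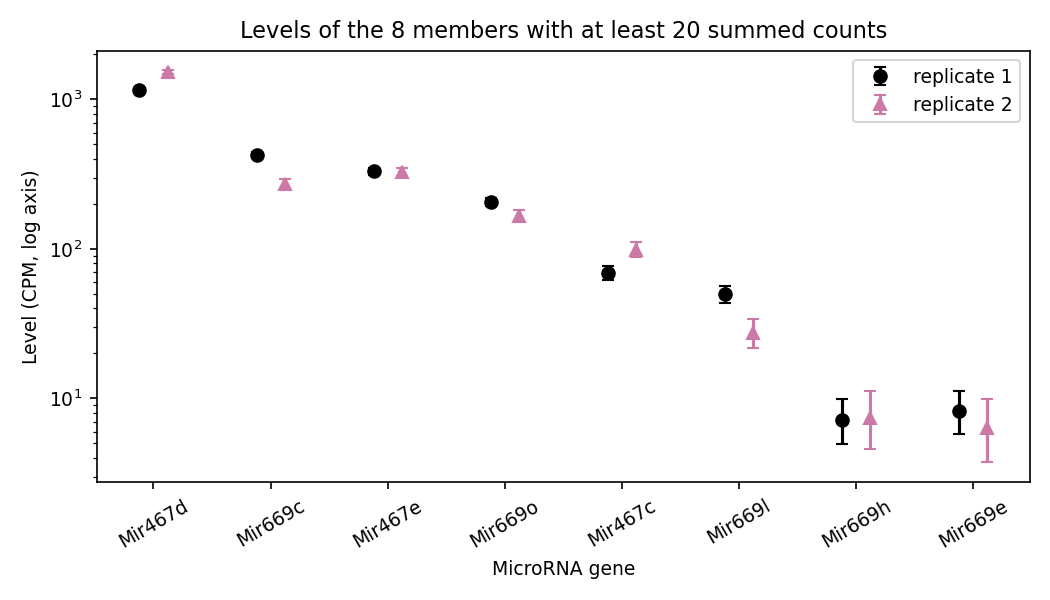
Levels in CPM on a log axis of the 8 genes with 20 or more counts over both libraries, shown by library; points are single libraries and bars exact 95% counting intervals. Mir467d stands above the rest at 1159 and 1518 CPM, while Mir669c and Mir467e, and Mir669h and Mir669e, change order between the libraries.

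Of the remaining 73 genes, 67 had no count and 6 had between 1 and 19. Mir669f, a neighbour of Mir669e, had 2 and 4 counts and was the only one of the 6 seen in both libraries. Mir466q, within an intron of the kinase gene Tnik on chromosome 3, had 0 and 5 counts and was the only one of the 10 genes outside Sfmbt2 with any. The other 4, named here after their values were seen, were Mir466h (0 and 4 counts), known from cultured hamster cells as a pro-apoptotic microRNA, Mir466l (0 and 2), known to raise interleukin 10 in macrophages, Mir297a-2 (0 and 2) and Mir466n (3 and 0). The 9 scattered relatives without a count include Mir467f, Mir466i, Mir467g, Mir669n and Mir466k, which lie opposite introns of other genes, and Mir466j, Mir466f-4, Mir297-1 and Mir467h, which lie between genes.

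Counts were found toward both ends of the cluster. The longest run of consecutive genes without a count, picked by these values, has 38 genes. This stretch, from Mir466b-1 to Mir669a-12, fills 29.7 kb of the 51.6 kb, between Mir467c on one side and Mir467e on the other. It holds 11 Mir467, 11 Mir466 and 16 Mir669 genes, mostly repeated units of Mir467a, Mir466b or Mir466c, and Mir669a. The 10 numbered copies of Mir467a, the 8 of Mir466b and the 12 of Mir669a were all at 0 in both libraries, including Mir669a-2, which lies outside this stretch. The microRNA of the Mir669a genes is known to lower MyoD in cardiac progenitors. The 13 genes before the stretch had 606 and 384 counts and the 20 after it 10138 and 6539, so that 94.4% and 94.5% of the cluster's counts in replicates 1 and 2 came from the far end. Of the 8 genes with at least 20 summed counts, 3 lie before the stretch and 5 after it, and none could lie within it by the way it was picked.

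**Figure D2:**
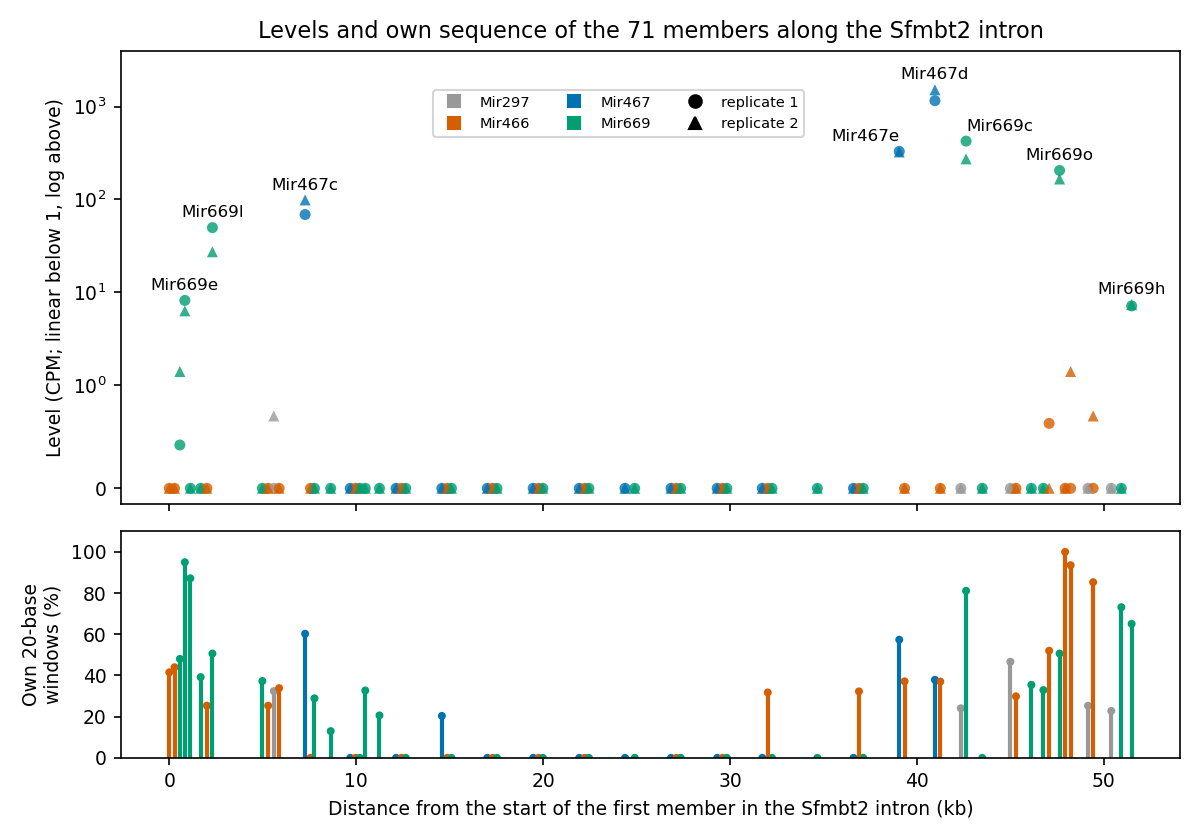
The 71 genes in the Sfmbt2 intron by distance in kb from the start of the first; the upper panel gives the level in CPM (linear below 1, log above) in each library, and the lower panel the percentage of 20-base windows of the hairpin found in no other microRNA gene. Counts lie at both ends, and the 38 genes between Mir467c and Mir467e are at 0 in both libraries, where most hairpins have no window of their own.

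Because only uniquely placed reads were counted, the hairpins were compared with one another. A window is a stretch of 20 bases, and it was called a gene's own when it occurs, on either strand, in no other annotated microRNA gene that does not overlap it. The rest of the genome was not searched. The hairpins are those of the reference GRCm38, and differences in sequence or copy number from the CAST/EiJ parent were not examined. A run of at least 20 bases was shared with another microRNA gene by 79 of the 81 hairpins (97.5%), against 49.4% of all 2202. The longest shared run had a median of 62 bases over the 81 and of 19 over all genes. In 24 of the 81 the whole hairpin was identical to that of another gene in the group, in 6 sets, the largest with 9 copies of Mir669a and the next with 6 copies of Mir467a. A read that aligned to several genes holding a shared stretch was counted in none of them. The levels of these 79 genes are therefore uncertain.

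Own sequence varied along the cluster. Mir467d had its own sequence in 37.9% of its windows, and shared a run of 60 bases with Gm25022, a microRNA gene of the same intron that in turn shares 83 bases with copies of Mir467a. Mir669c had 81.1%, Mir467c 60.3%, Mir467e 57.4%, Mir669o and Mir669l 50.6% each, Mir669h 65.1% and Mir669e 95.0%. In the stretch of 38 genes, which was picked for having no count, 31 had no own window, the median was 0% and the highest value was 32.7%. Among the other 33 genes of the cluster the median was 41.5%, and 1 gene, Mir669a-2, had no own window. This difference was not tested.

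Whether a gene had a count moved with its own sequence both inside and outside the group. With no own window, 0 of 32 genes in the group and 3 of 269 others (1.12%) had a count. With some own windows but under 50%, 3 of 28 (10.7%) had one in the group, against 11 of 325 (3.38%). With at least 50%, 11 of 21 (52.4%) had a count, against 760 of 1527 others (49.8%). These shares are descriptions, since copies of one repeat are not independent, and whether a copy without own sequence was expressed was not detectable from these counts.

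Own sequence, counted over the whole hairpin, did not by itself come with counts. Of the 21 genes with at least 50%, 10 were at 0 in both libraries, named here after their values were seen. Mir466g, all of whose windows were its own, is the next of the 71 after Mir669o, and Mir669b (87.2%) is the next after Mir669e, yet neither had a count. Mir669i (73.1%) was at 0 as well, beside Mir669h with 34 and 21 counts. The other 7 of the 10 were scattered relatives, Mir466f-4, Mir466i, Mir466j, Mir466k, Mir467f, Mir467g and Mir669n. Whether the own windows of these 10 genes covered the mature microRNA was not tested. Their longest shared run was 16 bases in Mir466g, 18 in Mir669n, 47 in Mir669i and 52 in Mir466i. In the rest it lay between 26 (Mir466j) and 33 bases (Mir467g). Reads that aligned to several genes through a run of at least 20 bases were counted in none. Mir466g and Mir669n share no such run with another microRNA gene, and the rest of the genome was not searched. In none of the 10 genes does a count of 0 by itself show absence.

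**Figure D3:**
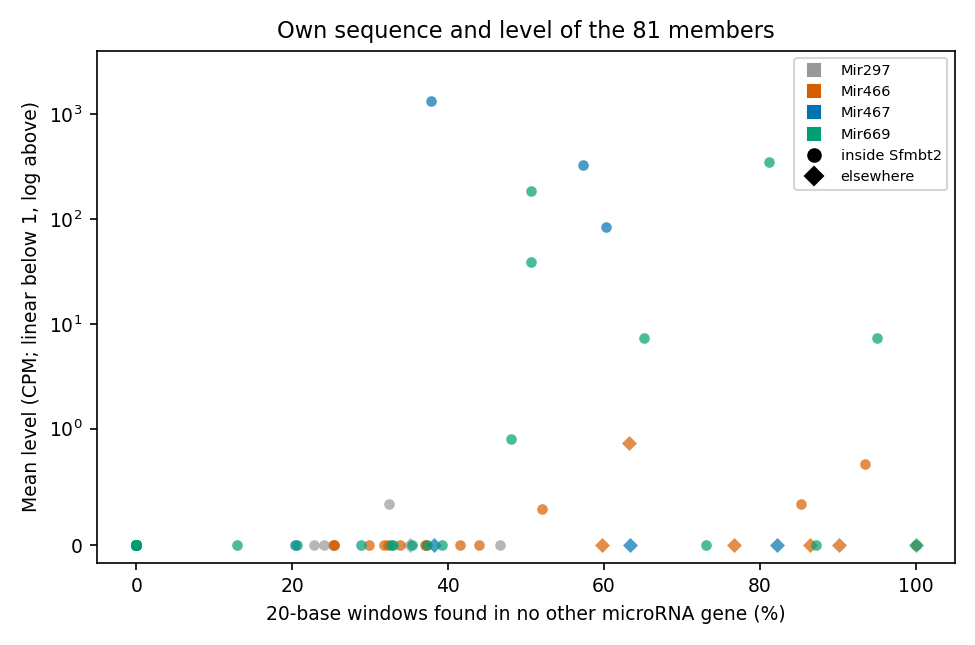
Mean level in CPM (linear below 1, log above) of the 81 genes against the percentage of their 20-base windows found in no other microRNA gene; colours give the family and diamonds the 10 genes outside Sfmbt2. The 32 genes with no own window are all at 0, and of the 21 at 50% or more 11 have a count.

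Replicate 2 was compared with replicate 1 for the 450 microRNA genes (20.4% of all) with 20 or more counts over both libraries, of which 8 belong to the group. The test was a two-sided exact binomial one, with the expected share taken from TMM-scaled library sizes and Benjamini-Hochberg adjustment over the 450. This test compares these libraries, not conditions. Of the 8 genes, 2 were higher in replicate 2, 3 were lower and 3 did not pass. Over all 450 genes, 32.9% were higher and 32.0% lower, so 5 of 8 past the test lies near the background. The median log2 ratio was -0.04 over the 8 and 0.01 over all 450, and the median size of the ratio, whatever its sign, was 0.38 and 0.51.

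The genes that were higher were Mir467 genes. Mir467d gave a log2 ratio, replicate 2 over replicate 1, of 0.51 (exact 95% counting interval 0.45 to 0.57, adjusted p = 3.49e-66 by the exact binomial test), and Mir467c one of 0.64 (0.41 to 0.88, adjusted p = 1.33e-07). Mir467e, at 0.10 (-0.02 to 0.22), did not pass.

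Those that were lower were Mir669 genes. Mir669c gave -0.51 (-0.63 to -0.39, adjusted p = 1.85e-17 by the exact binomial test) and Mir669l -0.74 (-1.13 to -0.37, adjusted p = 0.000123). Mir669o gave -0.18 (-0.35 to -0.02, exact adjusted p = 0.0361), and this call was lost when strand was ignored (-0.17, exact adjusted p = 0.0506) or when Mirlet7b, the most abundant gene, was left out (-0.16, exact adjusted p = 0.0768). Mir669e at -0.25 (-1.15 to 0.59) and Mir669h at 0.17 (-0.69 to 0.99), with 57 and 55 summed counts, did not pass, and at that depth a 1.5-fold difference lay within their intervals. A ratio at least as large as that of Mir467d was seen in 49.8% of the 450 genes, and one at least as large as that of Mir669l in 31.3%.

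**Figure D4:**
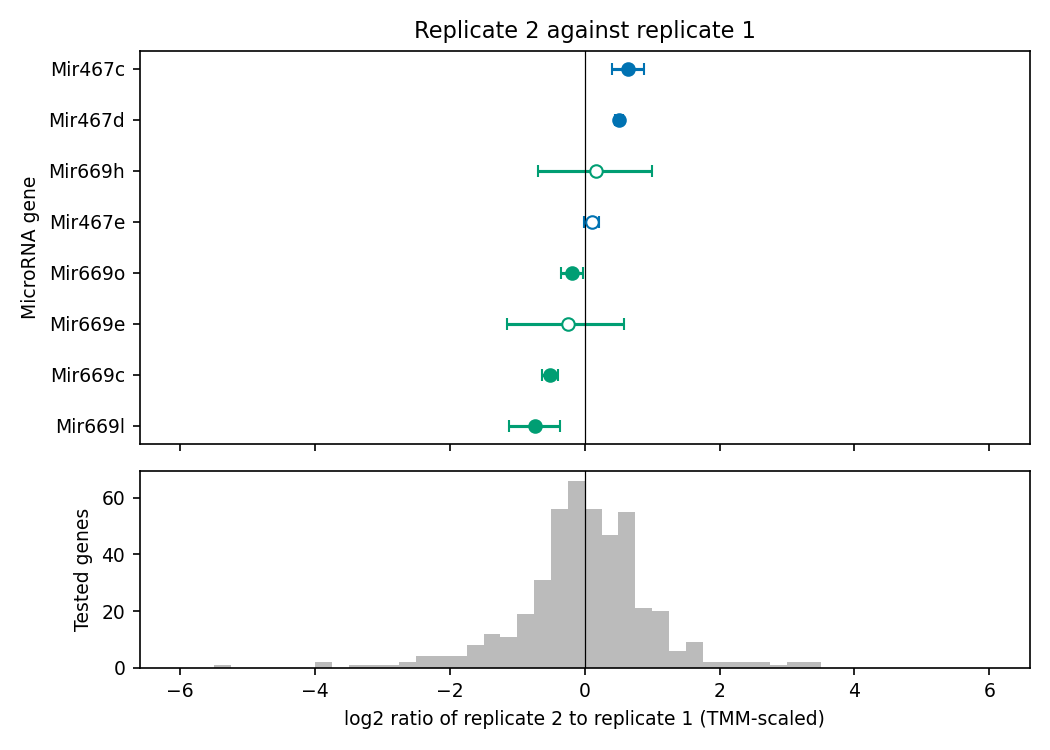
Log2 ratio of replicate 2 to replicate 1 for the 8 tested genes with exact 95% counting intervals (filled, past the exact binomial test; open, not past; blue, Mir467; green, Mir669), above the distribution for all 450 tested genes. Mir467c and Mir467d lie above 0 and Mir669l, Mir669c and Mir669o below it, all within the bulk of the distribution.

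Summed by family, with a grouping made after the single values were seen, Mir467 counts were 7424 and 5539, a log2 ratio of 0.44 (counting interval 0.39 to 0.49), and Mir669 counts were 3317 and 1376, a ratio of -0.41 (-0.50 to -0.32). Without the most abundant gene of each family, Mir467d and Mir669c, the sums gave 0.21 (0.11 to 0.32) and -0.26 (-0.40 to -0.11). All these ratios are TMM-scaled. Total counts as library sizes shift each by -0.12, a larger step than the lower Mir467 limit of 0.11. The levels were 0.156% and 0.194% of all counts for Mir467 in replicates 1 and 2, and 0.0696% and 0.0482% for Mir669. With 1 library a pool these differences have no estimate of the spread between pools beyond the 2 values themselves.

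Other imprinted microRNAs and an embryonic cluster set the scale. Outside the Dlk1-Dio3 region, Mir298 and Mir296, of the imprinted Gnas locus, stood at 7895 ± 5146 and 3806 ± 75.8 CPM (SD, n = 2), and Mir335, within the paternally expressed Mest, at 2166 ± 187. Mir483, within Igf2, stood at 165 ± 56.4 CPM and Mir675, made from H19, had 1 and 0 counts. Of the 4 tested in this list, Mir298 was higher in replicate 2, Mir335 and Mir483 were lower, and Mir296 was higher with TMM scaling (log2 ratio 0.08) but lower with total counts as library sizes (-0.04). The list of 5 thus held 1.06% and 1.74% of the counts, more than the 81 genes together. None of the 5 shared a run of at least 20 bases with another microRNA gene, against 79 of the 81. Any reads of the 81 genes that aligned to several places are missing from their total, so these shares are not measured alike. The 9 genes of the Mir290 to Mir295 cluster, which is active in embryonic stem cells and the early embryo, had 6 and 1 counts in all.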

How the data were processed

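Small RNA reads from 2 libraries of 1 group were used as counts per microRNA gene, whole numbers deposited by the authors in 1 table a library on mm10 (GRCm38) with GENCODE M21, per the text deposited beside the tables. Aligner and counter were not given in the sources used here. Of the strand columns, that of larger sum was read as sense, and lines for unmapped, multi-mapping and unassigned reads stayed out of totals. All 2202 identifiers matched GENCODE M21. CPM, SDs, exact intervals, shared runs and windows of 20 bases were computed here with Python 3.11.15, numpy 2.4.6, pandas 2.3.3 and scipy 1.17.1, and figures with matplotlib 3.10.9. TMM factors came from edgeR 4.0.16 under R 4.3.3 and alternative size factors from DESeq2 1.42.0. With 1 library a pool, a model with residual spread could not be fitted, so an exact binomial test was used with a threshold of 0.05. It was tried on simulated data with known library sizes and counting error only. That trial cannot show how the test behaves with spread between pools. Members with 20 or more counts over both libraries are named with values, and others with 5 to 19 may be named; members below this were picked for the text with their values known. The labels call the libraries biological replicates, and p-values measure counting error between them. The members and lists were chosen with earlier results of these data known. Alternatives were the unstranded column, thinning, leaving out the most abundant gene or a replicate, other scalings, filters, thresholds, detection minimums and run lengths. Leaving out the leading gene of a family was added after seeing the data. Alignments and signal tracks were not used here.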

Additional observations from a re-analysis of the deposited data

How the results depend on the processing

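The share of counts held by the 81 genes, 0.234%, was 0.250% with the unstranded column and 0.261% with the most abundant gene left out of the totals, both through a smaller total. Leaving out each replicate gave 0.225% to 0.243%, 8 detected genes either way, and a Sfmbt2 share of 99.93% to 100%. Detection minimums of 1, 5 and 20 counts gave 9, 8 and 7 genes. With no filter on low counts, 4 of 14 genes were higher in replicate 2 in place of 2 of 8, beside 18.4% of 788 genes, the added ones being Mir466h (0 and 4 counts) and Mir466q (0 and 5 counts). In the same setting 3 of 14 were lower, beside 19.5% of the 788. Library sizes taken as total counts shifted all log2 ratios by -0.12, left 2 genes higher and 3 lower, and put Mir467e at -0.02; over all genes 127 were then higher and 168 lower. Among alternative values of single ratios, 59 kept their side of the threshold and 3, all of Mir669o, did not, the third being an adjusted p under 0.01. Runs of at least 16 or 24 bases left the count of genes sharing one within 1.5 times. No paired analysis was possible because there is 1 group. Depth limits Mir669e and Mir669h, at 57 and 55 summed counts, and all genes under these.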
